A study of Mus musculus with 2 samples.

Results

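The genes described here are Zfp36, Zfp36l1 and Zfp36l2, which form the Zfp36 family of AU-rich mRNA binding proteins, and Elavl1, which encodes the AU-rich mRNA binding protein HuR. They were taken as every probe set whose platform annotation gives exactly 1 gene symbol that is one of these 4 names, which found 6 of 12422 non-control probe sets and 4 of 8251 genes. Signals were compared between the skin of newborn keratin 5 knockout mice (K5-/-), a model of the blistering disease epidermolysis bullosa simplex, and the skin of newborn wild type mice. RNA of 6 animals per genotype was pooled and each pool was read on 1 array, so every value below is a single array and no test was possible. The labels name the source epidermis, while the titles and the extraction protocol name skin and describe no separation of layers. The sources used here do not give the strain, the sex or the deleted part of the keratin 5 gene.

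Zfp36, also called tristetraprolin, binds AU-rich elements in the untranslated end of short-lived mRNAs through a tandem pair of zinc fingers and recruits the deadenylase complex that starts their decay. Its best known targets are cytokine mRNAs such as Tnf and Csf2, and mice without it develop systemic inflammation. Zfp36l1 and Zfp36l2 carry the same type of zinc fingers and destabilise overlapping sets of mRNAs. Elavl1 binds similar AU-rich sequences through RNA recognition motifs, and often stabilises the mRNA it binds. Zfp36 is itself an immediate early gene, transcribed within a short time of growth factor, stress or cytokine stimulation, and its own mRNA is short-lived.

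The 250 bases before the annotated start of Zfp36 are shown first, because Zfp36 had the highest ratio among these genes, and those of its relative Zfp36l1 follow for comparison. Both are from RefSeq, build GRCm38.p6, minus strand, written 5′ to 3′. The Zfp36 window is chr7:28379229-28379478 and the Zfp36l1 window is chr12:80113014-80113263. Capitals mark matches to the 8 motifs searched on both strands.
Zfp36: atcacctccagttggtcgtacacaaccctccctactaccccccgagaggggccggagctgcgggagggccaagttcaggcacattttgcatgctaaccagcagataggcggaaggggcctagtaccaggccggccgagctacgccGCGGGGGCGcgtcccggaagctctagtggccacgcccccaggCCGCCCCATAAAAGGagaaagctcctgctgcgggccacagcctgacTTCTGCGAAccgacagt
Zfp36l1: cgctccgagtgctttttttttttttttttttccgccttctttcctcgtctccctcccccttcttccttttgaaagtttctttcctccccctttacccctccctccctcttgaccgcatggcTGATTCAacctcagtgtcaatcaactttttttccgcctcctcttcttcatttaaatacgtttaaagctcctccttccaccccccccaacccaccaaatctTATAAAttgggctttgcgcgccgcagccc

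In the Zfp36 window the capitals mark, from left to right, an EGR site (GCGNGGGCG), a GC box (GGGCGG, here on the reverse strand) that shares 1 base with the CArG box after it, and a STAT site (TTCNNNGAA). The CArG box is the sequence bound by serum response factor, and EGR sites are bound by the early growth response factors. A CArG box was found in 1.47% of 32851 promoter windows of this length, an EGR site in 2.64%, a STAT site in 7.02% and a GC box in 32.7%. The Zfp36l1 window held an AP-1 site (TGANTCA, found in 6.75% of windows) and a TATA box (TATAAA, 12.4%), and none of the motifs marked in Zfp36. The other motifs searched were the CRE (TGACGTCA, 1.55% of windows) and the NF-kB site (by name, 4.995%), and neither was found in these windows. The Elavl1 window held none of the 8 motifs. These matches describe letters in a window and say nothing of which factor was bound. Bases outside the window were not searched. A window was found for 3 of the 4 genes, and Zfp36l2 is named only.

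Signals are MAS5 intensities, which combine the probes of a probe set into 1 value on a linear scale. Ratios were taken after values under 246.7 signal units, the 40th percentile of all values, were raised to that floor, and they are log2 ratios of knockout over wild type. A gene above the floor on at least 1 array counted as measured.

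Zfp36 read 5632.5 in knockout skin and 1180 in wild type skin. The knockout value was 4.77-fold higher, a log2 ratio of 2.25, and it was the third highest of the 5518 genes above the floor on both arrays. Its wild type signal lay at the 73.5th percentile of all non-control probe sets, and its knockout signal at the 95.8th. The suffix of its probe set name (_s_at) marks probes that can match more than 1 transcript, and no other probe set reports the gene. In pooled whole tissue, more cells that make a transcript and more transcript per cell cannot be told apart.

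Zfp36l1 and Zfp36l2 were higher in the knockout by less than 2-fold. Zfp36l1 read 9622 in knockout skin and 5601 in wild type skin, a ratio of 1.72-fold and a log2 ratio of 0.78. Zfp36l2 had 3 probe sets. The brightest read 8775 in knockout skin against 5675 in wild type skin, a log2 ratio of 0.63, and stands for the gene.

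The second Zfp36l2 probe set read 937.5 in knockout skin and 760 in wild type skin, a log2 ratio of 0.30. The third read 234 and was under the floor in knockout skin, as was its wild type signal of 124, so it has no ratio. The 2 usable probe sets were both higher in the knockout, and the ratio of the brighter was 0.33 larger on the log2 scale.

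Elavl1 read 2995 in knockout skin and 3357 in wild type skin, a log2 ratio of -0.16. It was the only one of the 4 genes with a lower signal in the knockout.

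**Figure D1:**
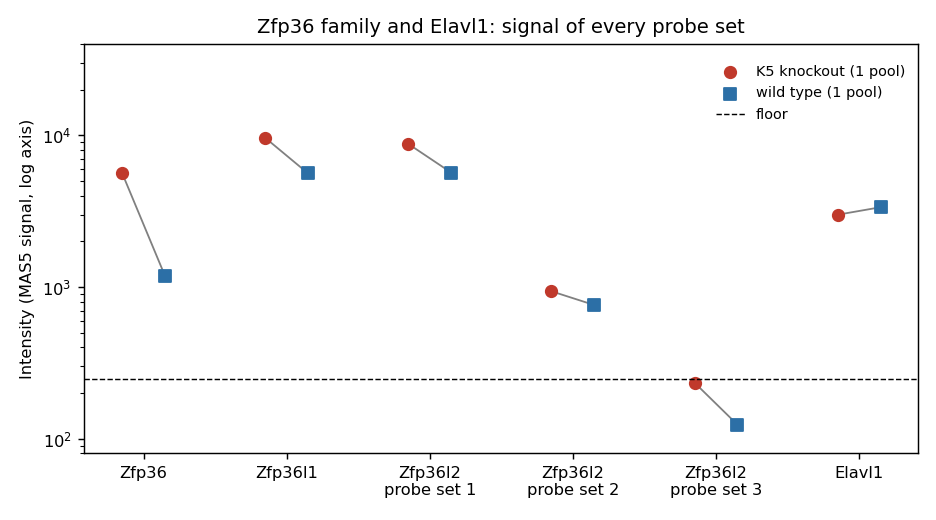
MAS5 signal on a log axis for every probe set of Zfp36, Zfp36l1, Zfp36l2 and Elavl1, with the K5 knockout pool as a red circle and the wild type pool as a blue square, and the floor of 246.7 as a dashed line. The knockout circle is above the wild type square in the Zfp36 family probe sets and below it for Elavl1, and the third Zfp36l2 probe set lies under the floor on both arrays.

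These genes were chosen with ratios of these arrays known, so their ratios are descriptions. One of the 4 genes, Zfp36, was at least 2-fold higher, beside 1.54% of the 5976 measured genes, and 0 of 4 were at least 2-fold lower, beside 0.703%. Higher by any amount were 3 of 4, beside 53.9% of the measured genes. Because the genes were picked on this contrast, nothing is read from these counts. The balance of calls over all genes depended on scaling: 92 genes were higher and 42 lower as reported, 79 and 59 with quantile normalization, 80 and 60 with a lowess correction, and 68 and 71 with median scaling.

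Technical error could be judged only from genes read by several probe sets. In the 838 genes with 2 or more usable ones, log2 ratios of the same gene had a standard deviation of 0.30, which gives 0.42 for a difference between 2 ratios. It holds no variation between animals or hybridisations. In the order of ratios, Zfp36 exceeded Zfp36l1 by 1.47, and Zfp36l1 exceeded Zfp36l2 by 0.15, which is less than that spread. Zfp36l2 in turn exceeded Elavl1 by 0.79. The ratios of Zfp36l1 and Zfp36l2 were both inside the range of -0.74 to 0.85 that held the central 95% of measured genes, and the Zfp36 ratio was outside it.

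**Figure D2:**
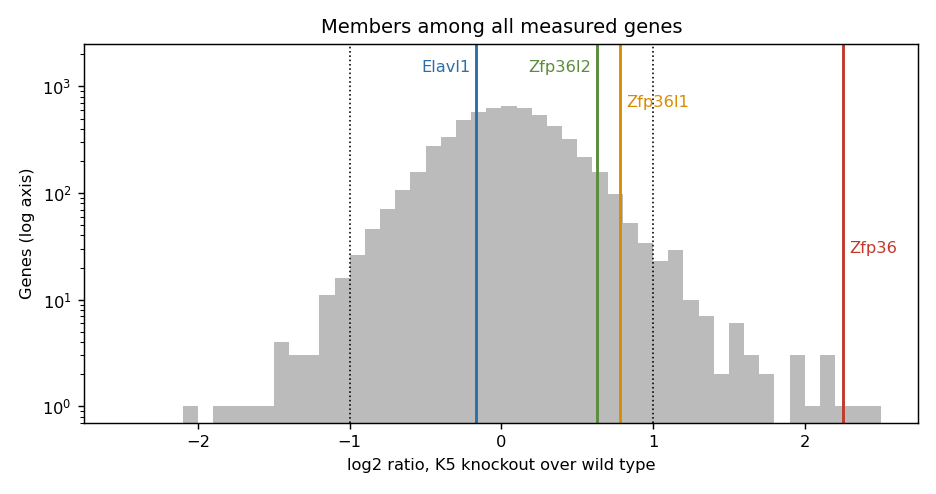
Histogram of the log2 ratio of knockout over wild type for the 5976 measured genes, with the number of genes on a log axis, dotted lines at 2-fold and a coloured line for each of the 4 genes. Zfp36 lies at 2.25 in the right tail, Zfp36l1 and Zfp36l2 lie at 0.78 and 0.63, and Elavl1 lies at -0.16 near the centre.

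The genes whose log2 ratio was nearest to that of Zfp36, with both signals over the floor, were Cxcl1 (2.20), Krt16 (2.196), Atf3 (2.15), Hspa1a (2.37), Nr4a1 (2.44) and Socs3 (1.997). A second Atf3 probe set was at 1.51, and the mean over the Atf3 probe sets was 1.83. Cxcl1 is a neutrophil attractant, Krt16 a wound keratin, Atf3 a stress-induced transcription factor, Hspa1a an inducible chaperone, Nr4a1 an immediate early nuclear receptor and Socs3 a feedback inhibitor of cytokine signalling. With 1 array per genotype this likeness is a likeness of a single ratio. A promoter window was found for 5 of these 6 genes, and 0 of the 5 held a CArG box or an EGR site. A STAT site was found for Socs3 among them.

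Of 25 measured immediate early genes, the class to which Zfp36 belongs, 20 were higher and 5 lower in the knockout. Among all measured genes 53.9% were higher. At least 2-fold higher were 12 of the 25 (48.0%, beside 1.54% of all measured genes). The median log2 ratio of the 25 genes was 0.997, beside 0.04 over all measured genes. This list was drawn up with results of these arrays known, so it is not independent evidence of a direction. Gadd45b, among the 12, was under 2-fold as the mean over its probe sets (0.82). It was also under 2-fold with plain probe sets only (0.29). The transcription factor gene Fosb read 2998 in knockout skin and 799 in wild type skin, and Ccn1, which encodes a matricellular protein, read 3455 in knockout skin against 1202 in wild type skin. Junb, an AP-1 subunit gene, read 2760.5 in knockout skin and 1072 in wild type skin, a ratio of 2.58-fold, and its second probe set had a log2 ratio of 1.62. Egr1, an early growth response factor gene, read 5517 in knockout skin and 2106 in wild type skin, 2.62-fold higher. Fosl1, another AP-1 subunit gene, was above the floor in the knockout alone, at 571, and was at least 2.31-fold higher. It is among the 20 higher genes and could only count as higher. Its log2 bound of 1.21 became 2.72 under a 25th percentile floor, and under a 60th percentile floor both its signals were at the floor and it had no ratio. Egr2 was at -0.24 and Ccn2 at -0.74. Promoter windows were found for 20 of the 25 measured genes. Of the motifs marked in Zfp36, a GC box was in 18 of these 20, beside 35.4% of all genes with a window, and an EGR site in 4, beside 3.005%. A CArG box was in 1, Egr2, beside 1.62%, and a STAT site in 1, Socs3, beside 8.13%.

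Regulators that act on Zfp36 protein showed 1 large ratio. The kinase p38 and its substrate kinase MK2 phosphorylate Zfp36, which then binds 14-3-3 proteins and is kept from its targets, while the phosphatase PP2A reverses this. Of 21 measured genes of this list, 8 were higher (38.1%, beside 53.9%) and 13 lower, with a median of -0.04, and 1 was at least 2-fold higher (4.76%, beside 1.54% of all measured genes). That gene was Dusp1, whose product inactivates p38: it read 14351.5 in knockout skin and 5489 in wild type skin, 2.62-fold higher, and it also belongs to the immediate early genes. Mapk14, which encodes p38 alpha, and Mapkapk2, which encodes MK2, were looked at after their values were seen. Mapk14 read 4793 in knockout skin and 4932 in wild type skin. Mapkapk2 read 3510 in knockout skin and 3586 in wild type skin, and its second probe set had a log2 ratio of -0.47. Map3k5 and Map3k7, also named after their values were seen, were above the floor in wild type alone. They could only count as lower.

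Of the 7 measured 14-3-3 genes, 3 were higher and 4 lower, with a median of -0.02. Ywhag was the second highest of the list, at a log2 ratio of 0.72 with 8713 in knockout skin and 5298 in wild type skin, and its second probe set was at 0.52. Ywhae and Ywhah were at -0.62 and -0.57. The other four, given after their values were seen, were Sfn at 0.32, Ywhab at 0.05, Ywhaz at -0.02 and Ywhaq at -0.08. Ppp2ca, a catalytic subunit gene of PP2A, had the lowest ratio of the list, -0.69, with 679 in knockout skin and 1093 in wild type skin, and the p38 pathway kinase gene Map2k4 was at 0.50.

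Among other genes for proteins that bind AU-rich or related elements, 24 had a probe set and 20 were measured. Of these 9 were higher (45.0%, beside 53.9% of all measured genes) and 11 lower, with a median of -0.05. At least 2-fold higher were 0, beside 1.54% of all measured genes, and at least 2-fold lower were 0, beside 0.703%, so the list was near the background. The highest ratios were those of Igf2bp1 (0.87), an mRNA stabilising protein gene, Pum2 (0.52), which encodes a Pumilio repressor, and Tia1 (0.44), which encodes a translational silencer. The lowest were those of Hnrnpc (-0.60), Khdrbs1 (-0.54) and Hnrnpd (-0.48), the last of which encodes AUF1, a decay factor for AU-rich mRNAs. Hnrnpd read 3517 in knockout skin and 4908 in wild type skin. Igf2bp1 was a dim gene, with 692 in knockout skin and 378.5 in wild type skin, and its ratio was 0.07 with the floor at the 60th percentile. The neuronal relatives of Elavl1, namely Elavl2, Elavl3 and Elavl4, read at most 11.0 on either array. Celf1, named after its values were seen, was above the floor in the knockout alone and could only count as higher.

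Of 27 genes of the deadenylation and decay machinery with a probe set, 23 were measured, 11 higher (47.8%, beside 53.9% of all measured genes) and 12 lower, with a median of -0.10. Btg2, an anti-proliferative gene whose product binds the deadenylases and which is also an immediate early gene, was 2.27-fold higher, with 7749 in knockout skin and 3417 in wild type skin. It was the only gene of this list past 2-fold (4.35% of its measured genes, beside 1.54%). After it came the exosome subunit genes Exosc7 (0.59) and Exosc8 (0.53). Lsm4, Lsm7 and Lsm3, genes of the ring that binds deadenylated mRNA and of the spliceosome, had the lowest ratios, -0.74, -0.72 and -0.64. Lsm4 read 2374 in knockout skin against 3956 in wild type skin. The deadenylase gene Cnot7, chosen after its values were seen, was at -0.40 with a second probe set at -0.08.

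**Figure D3:**
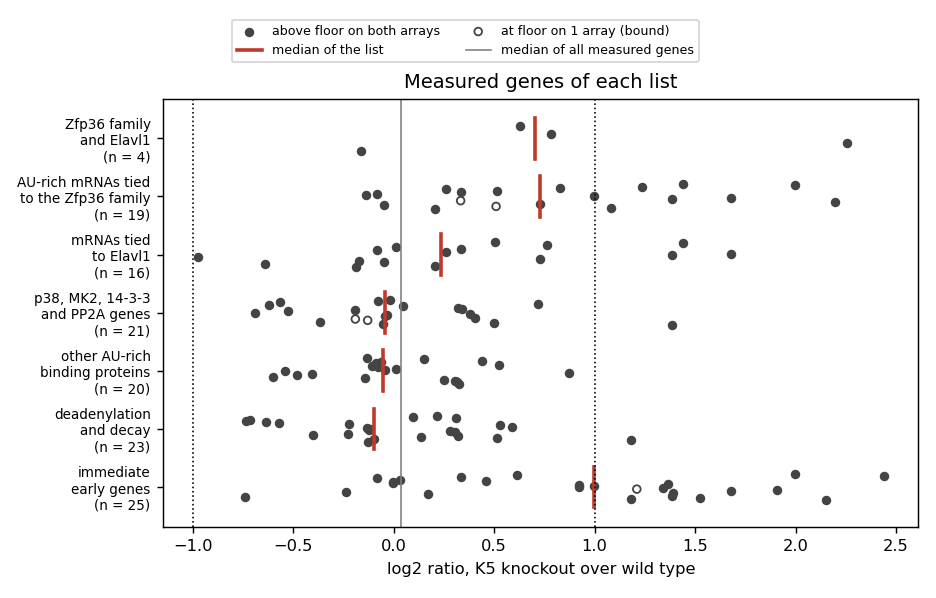
Log2 ratio of knockout over wild type for each measured gene, 1 row per gene list, with the list median as a red bar, the median of all measured genes as a grey line and dotted lines at 2-fold. Open circles are genes at the floor on 1 array, whose ratio is a bound. The AU-rich mRNAs and the immediate early genes have medians of 0.73 and 0.997, while the regulators, the other binding proteins and the decay genes have medians from -0.10 to -0.04.

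Of 37 AU-rich mRNAs that have been tied to the Zfp36 family, 32 had a probe set and 19 were measured. In the knockout 16 of these 19 were higher (84.2%, beside 53.9% of all measured genes) and 3 lower, 7 were at least 2-fold higher (36.8%, beside 1.54% of all measured genes) and 0 at least 2-fold lower. The median log2 ratio was 0.73, beside 0.04 over all measured genes. The list was drawn up with results of these arrays known, and it holds cytokine genes, which the study picked on these samples, so it is not independent evidence of a direction. Without the 6 genes shared with the immediate early genes, 11 of 13 were higher, 4 were at least 2-fold higher and the median was 0.51. Both counts of higher genes include Ccl3 and Cxcl2. These were above the floor in the knockout alone, so they could only count as higher.

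The 7 genes at least 2-fold higher encode transcription, chemokine, growth factor, protease inhibitor and feedback proteins. Fos, an AP-1 subunit gene, read 20145 in knockout skin and 6300 in wild type skin, 3.20-fold higher. Serpinb2, a protease inhibitor gene of differentiating and stressed keratinocytes, read 10410.5 in knockout skin and 4415 in wild type skin, 2.36-fold higher. Cxcl1 read 1986 in knockout skin and 433 in wild type skin, and its second probe set had a log2 ratio of 2.28. A floor set at the 60th percentile turned the Cxcl1 ratio into a bound of 1.59. Socs3 read 2070.5 in knockout skin and 519 in wild type skin, with a second probe set at 1.80.

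Vegfa, the angiogenic growth factor gene, read 681 in knockout skin and 251 in wild type skin, a ratio of 2.71-fold whose wild type value was barely above the floor. With the floor at the 60th percentile the Vegfa ratio was a bound of 0.05 on the log2 scale. Ccl2, a monocyte attractant gene, was 2.12-fold higher, with 1118 in knockout skin and 529 in wild type skin. It was under 2-fold with a pseudocount of 100, median scaling and quantile normalization. The higher floor turned the Ccl2 ratio into a bound of 0.76. Dusp1 completes the 7 genes.

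The 3 lower genes were all within 10% of equality: Il1a, an epidermal alarmin, at -0.14, Mcl1, a survival gene, at -0.08 and Ccnd1, which encodes cyclin D1, at -0.05. Of 7 genes of this list with another measured probe set, 6 had all their probe sets on the same side, and Ccnd1 was the exception, with 0.01 from its second. Chosen after their values were seen, Ier3, an immediate early survival gene, was at 0.997, just under 2-fold, Plaur, the urokinase receptor gene, was at 0.83, and the chemokine genes Ccl3 and Cxcl2 were above the floor in the knockout alone, at 351 and 311, and at least 1.42-fold and 1.26-fold higher.

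The 13 other AU-rich mRNAs with a probe set were at the floor on both arrays and have no ratio. Among them, named after their values were seen, were the classical Zfp36 targets Tnf, with 43.5 in knockout skin and 33.0 in wild type skin, and Csf2, with 8.60 in knockout skin and 9.10 in wild type skin. Ptgs2, the inducible cyclooxygenase gene, read 96.3 in knockout skin and 47.0 in wild type skin. Values under the floor have no order, so no direction is given for these genes.

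**Figure D4:**
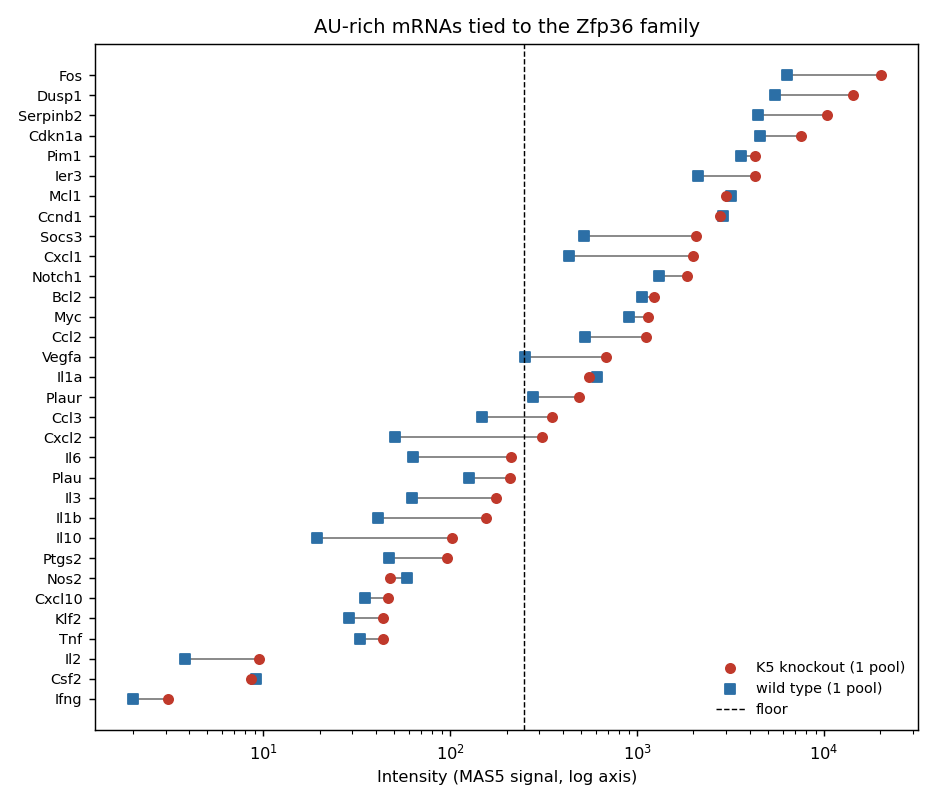
MAS5 signal on a log axis for the 32 AU-rich mRNAs of the Zfp36 family list that have a probe set, with the K5 knockout pool as a red circle, the wild type pool as a blue square and the floor as a dashed line. The widest gaps among genes right of the floor on both arrays are those of Cxcl1 and Socs3, and 13 genes lie left of the floor on both arrays.

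Of 16 measured mRNAs tied to Elavl1, 10 were higher (62.5%, beside 53.9% of all measured genes) and 6 lower in the knockout. Their median was 0.24, beside 0.04 over all measured genes, and 3 were at least 2-fold higher (18.75%, beside 1.54%). Those 3, Fos, Vegfa and Dusp1, are all on the Zfp36 family list too. The 2 lists share 8 genes, 50.0% of the measured members of the Elavl1 list and 42.1% of those of the Zfp36 family list. Without the 4 genes that the Elavl1 list shares with the immediate early genes, 7 of 12 were higher. Among these 12, 1 was at least 2-fold higher and the median was 0.11. Among the lowest were Cycs, which encodes cytochrome c (-0.98), and Ccna2, which encodes cyclin A2 (-0.64). Cycs read 465 in knockout skin and 915 in wild type skin, and a 60th percentile floor gave it a bound of -0.47. Ccna2 read 2344 in knockout skin and 3650 in wild type skin. Actb followed at -0.19, with a second probe set at -0.37.

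Markers of several cell types differed between the same arrays, and their part in these results was not tested. Over all measured genes, 53.9% were higher in the knockout. Of 10 measured macrophage and monocyte markers, 9 were higher in the knockout, from Mpeg1 at a log2 ratio of -0.25 to Adgre1 at 0.97, with a summed signal of 13778 in knockout skin and 9520 in wild type skin. C1qb, 1 of these 9 and chosen after its values were seen, was at 0.96 with a second probe set at -1.0035. By their brightest probe sets, all 11 measured hair follicle markers were higher, from Lef1 at a log2 ratio of 0.02 (second probe set -0.35) to Krt86 at 1.22. Their summed signals were 26867 in knockout skin and 19700 in wild type skin. Krt35, chosen after its values were seen, was at 0.06 with a second probe set at -0.27. Krt34, 1 of the 11 and also chosen after its values were seen, was above the floor in the knockout alone. It could only count as higher. Of 10 dermal fibroblast markers 8 were higher, from Dpt at -0.30 to Pdgfra at 1.02 (second probe set 0.34), with sums of 230019 in knockout skin and 196940 in wild type skin, and of 10 skeletal muscle markers all were, from Des at 0.03 to Myh8 at 0.94, with 72751 in knockout skin and 61492 in wild type skin. All 4 measured basal keratinocyte markers were lower, from Itgb4 at -0.56 to Col17a1 at -0.29, with sums of 7221 in knockout skin and 9857 in wild type skin. The other 3 of the 7 listed, Krt5, Krt14 and Krt15, named after their values were seen, were at the floor on both arrays and have no ratio. Of 5 measured neutrophil markers 2 were higher, from Camp at -0.84 to Elane at 0.44, and 6 of 7 T cell markers were at the floor on both arrays, all but Cd4 (0.18). The median log2 ratios of suprabasal keratinocyte, mast cell, endothelial, adipocyte, melanocyte and erythroid markers lay between -0.06 and 0.31. Suprabasal markers ran from Krt2 at -0.51 to Ivl at 1.27, endothelial ones from Tie1 at -0.22 (second probe set 0.68) to Vwf at 1.05, and adipocyte ones from Fabp4 at -0.20 to Lep at 1.52. The Pdgfra ratio was under 2-fold in 3 of 8 alternative settings. That of Vwf was under 2-fold with a pseudocount of 100, median scaling, quantile normalization and the lowess correction. With the floor at the 60th percentile Vwf had no ratio. Mast cell markers ran from Mcpt4 at -0.12 to Hdc at 0.16, melanocyte ones from Dct at -0.17 to Tyrp1 at 0.06, and erythroid ones from Hba-a1 at 0.23 to Alas2 at 0.40. Krt5 itself was under the floor on both arrays, at 81.2 in knockout skin and 46.6 in wild type skin, so the targeted gene does not check the labels. The sex of the animals is not given. Eif2s3y, a Y-linked gene looked at after its value was seen, was at a log2 ratio of 1.54, and its X-linked relative Eif2s3x at -0.53. Whether the pools differed in sex was not tested. The 3 prime over 5 prime signal ratio is a sign of RNA integrity. For Actb it was 1.04 in knockout skin and 1.06 in wild type skin. For Gapdh it was 0.841 in knockout skin and 0.831 in wild type skin. Short-lived transcripts were not covered by these ratios.

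The ratios of the 4 genes moved little with the processing. Zfp36 ranged from 2.14 with median scaling to 2.29 with the lowess correction over the 7 alternatives that could be run for it, Zfp36l1 from 0.66 to 0.87, and Elavl1 from -0.28 to -0.11. Zfp36l2 ranged from 0.47, as the mean over its probe sets, to 0.72. Median scaling lowered the median of all measured genes by 0.12, and the lowest values of Zfp36, Zfp36l1 and Elavl1 came from that setting.

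**Figure D5:**
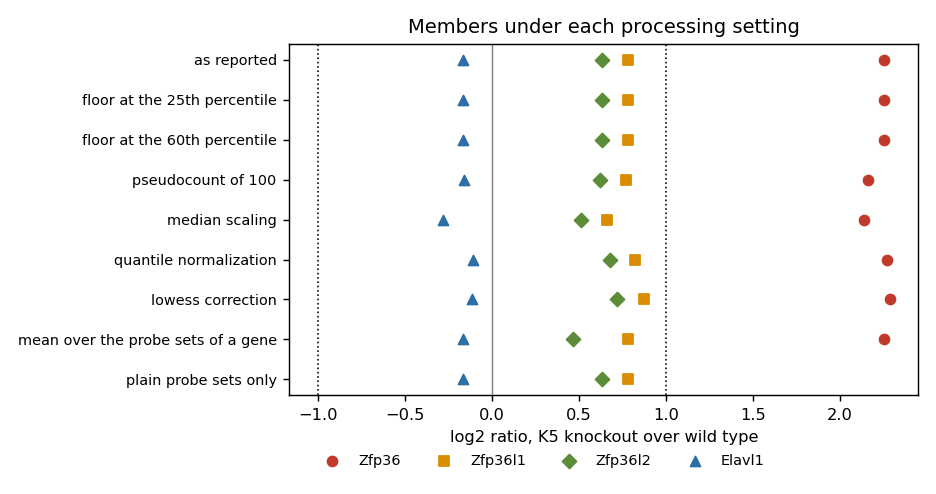
Log2 ratio of knockout over wild type of Zfp36, Zfp36l1, Zfp36l2 and Elavl1 as reported and under each of 8 alternative settings, with dotted lines at 2-fold. Zfp36 has no point for plain probe sets only, stays right of the 2-fold line in the other settings shown, and the points of Elavl1 stay left of 0.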

How the data were processed

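The authors pooled total RNA of 6 animals per genotype and made biotinylated cRNA from 2 µg, per the labels' protocols. Each deposited value is the linear intensity of 1 probe set, made with MAS5 per the submitters' processing notes. Which MAS5 version and target were used, and which detection calls it gave, is not given in the sources used here. Of 12422 non-control probe sets, the platform annotation gives 1 symbol for 10833, several for 396 and none for 1193, and genes were named only from the first kind.

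From the deposited intensities, both arrays were brought to 1 common 2% trimmed mean (factors 1.0001 for the knockout and 0.9999 for the wild type), floored at the 40th percentile (246.7) and put on the log2 scale with numpy 2.4.6 and pandas 2.3.3. The probe set with the highest mean stood for a gene. With 1 array per group there were 0 residual degrees of freedom and no test. The number of arrays limits the precision.

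Members and lists were chosen with earlier results of these data known. Named were all member probe sets, genes of the pathway lists past 2-fold, the 3 highest and 3 lowest of each such list, the 6 genes nearest to Zfp36, and the highest and lowest gene of each marker list; others are marked as chosen after their values were seen. The calculation was tested on simulated data. Promoter motifs were searched in RefSeq windows of 250 bases. Alternatives changed the floor, scaling, normalization and choice of probe sets. Printed genome positions are those of the RefSeq promoter windows.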

Additional observations from a re-analysis of the deposited data

How the results depend on the processing

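The direction of Zfp36, Zfp36l1, Zfp36l2 and Elavl1 was the same in every alternative run, and no ratio of these 4 genes crossed 2-fold or moved by more than 0.30, the standard deviation between probe sets. Zfp36 has no value with plain probe sets only, because its single probe set carries a suffix. The numbers of genes at least 2-fold higher and lower in the knockout depended on the floor: 205 and 94 with it at the 25th percentile and 44 and 19 with it at the 60th, where fewer dim genes can pass. With median scaling 71 genes were at least 2-fold lower. That setting multiplies each array by 1 factor, and it lowered the median of all measured genes by 0.12. No list median moved by more than 0.30. That of the AU-rich mRNAs tied to the Zfp36 family ran from 0.51, without genes shared with the immediate early genes, to 0.86 with a pseudocount of 100, and its number at least 2-fold higher from 4 to 11. The medians of the other binding proteins (-0.17 to 0.04) and of the p38, MK2, 14-3-3 and PP2A genes (-0.16 to 0.03) changed sign between settings. That of the decay genes ran from -0.22 to -0.0001. No replicate could be left out, with 1 array per group. No paired analysis was possible because each genotype has 1 array. Dim signals and the missing replicates limit every ratio.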

Other observations

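Several probe sets of the same gene disagreed among the genes examined here, chosen after their values were seen. For the complement gene C1qb, a macrophage marker, the brightest probe set read 2301 in knockout skin and 1183 in wild type skin, a log2 ratio of 0.96, and the second had a log2 ratio of -1.0035. For Gadd45b, a stress sensor gene among the immediate early genes, the brightest probe set had a ratio of 1.34 and the second one of 0.29. Map2k6, a p38 kinase gene, was at -0.36 from the brightest and 0.12 from the second. Zfp36 and Elavl1 have 1 probe set each, so this comparison cannot be made for them.

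Some immediate early genes had nearly equal signals on both arrays. Klf4, an epidermal differentiation factor gene, read 14637 in knockout skin and 14659 in wild type skin, and Jund, an AP-1 subunit gene, read 12381 in knockout skin and 12403 in wild type skin. Both were chosen after their values were seen.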
